A study of Mus musculus with 2 samples.

Results

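The genes that encode the proteins of the cytoplasmic ribosome were followed across 2 sections of mouse kidney profiled by spatial transcriptomics. The family was defined by gene symbol: Rpl or Rps followed by a digit, together with Rplp0, Rplp1, Rplp2 and Rpsa, leaving out the ribosomal S6 kinases (Rps6k) and rows marked as pseudogenes (-ps). This gave 86 of the 32285 genes listed: 34 of the small subunit, 49 of the large subunit and 3 of the stalk. At least 1 UMI, the tag that counts a captured RNA molecule once, was found for 84 of them in each section, and the same 2 genes, Rpl10l and Rpl39l, had none in either. Of the 86, 83 reached 10 CPM (UMIs per 1000000 UMIs of the section) in at least 1 section and are called measured. Rps19bp1, a binding partner of the small subunit protein S19 and no ribosomal protein itself, was taken in by its symbol.

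Both sections were labelled as kidney from C57BL/6 mice at day 7 after unilateral ureteral obstruction, a model of kidney injury by a blocked ureter. One mouse had received SH045, known as larixyl N-methylcarbamate and an inhibitor of the cation channel TRPC6, and the other vehicle. Dose, route, sex and age were not stated in those labels. There was 1 section from 1 mouse in each group, so no test between the treatments was possible, spots are not replicates, and a difference between sections cannot be told apart from one between mice or libraries. A spot samples a patch of tissue with more than 1 cell, often of different types.

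A ribosome is built from a small subunit, which reads the messenger RNA, and a large subunit, which joins amino acids. A stalk on the large subunit recruits the factors that drive elongation. Messenger RNAs of most ribosomal proteins start with a run of pyrimidines at the cap, the terminal oligopyrimidine (TOP) motif, through which mTORC1 adjusts their translation together with that of elongation factors. Because the subunits take up their proteins in fixed proportion, these messages are known for moving as a group, and they are among the most abundant of a kidney cell. Some members also have a paralog of restricted expression or a role outside the ribosome.

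The SH045 section held 22388623 UMIs in 790 spots (median 27733 per spot) and the Vehicle section 4327613 UMIs in 676 spots (median 4932.5 per spot). Of the tubular injury markers, Havcr1 had 992 CPM in the first section and 1.62 CPM (7 UMIs) in the second, and Lcn2 had 1233 and 2.08 CPM (9 UMIs). These levels go against the injury named in its labels, so the second is called the section labelled Vehicle. All 12 measured injured tubule markers were at least 1.5-fold higher in the SH045 section, where their summed level ranged over 4 position blocks from 2.60% to 2.96% of UMIs, against 0.149% to 0.185% in the section labelled Vehicle, with Krt20 at 0 there. All 10 fibroblast and matrix markers were higher as well, at 0.314% to 0.854% against 0.0216% to 0.0293%, with Lum at 0 in the section labelled Vehicle. All 10 macrophage markers were higher, at 0.525% to 0.657% against 0.0538% to 0.0689%. Of 12 markers of the first proximal tubule segments none was higher and 11 were lower, at 0.0693% to 0.221% against 1.11% to 1.27%. The proximal tubule did not move as a whole: of 8 proximal S3 markers 6 were higher and 2 lower. Their block ranges overlapped, at 0.0452% to 0.121% against 0.0520% to 0.0694%. Mitochondrially encoded genes took 4.24% of UMIs with SH045 and 10.4% in the section labelled Vehicle, and Gm42418, a row that overlaps ribosomal RNA, stood at 2081 and 3264 CPM. The part of these differences in the ribosomal protein results was not tested. Fewer cells of a type and less RNA per cell cannot be told apart in spots.

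Ribosomal protein messages made up 9.62% of all UMIs in the SH045 section (95% interval 9.61% to 9.64%) and 7.09% in the section labelled Vehicle (7.07% to 7.12%). Within the SH045 section the 4 position blocks ranged from 8.44% to 11.3%, and within the section labelled Vehicle from 6.71% to 7.38%, so that the block ranges did not overlap. As a share of UMIs the family was thus 1.36-fold higher in the SH045 section (1.35 to 1.36), a log2 ratio of 0.44. The direction turned under other scalings, to -0.14 with edgeR's TMM scaling factors and to -0.19 under DESeq2's median-of-ratios factors. The latter factors (2.83 for SH045 and 0.354 for the section labelled Vehicle) were set with no filter on low counts. The part of genes with few UMIs in them was not tested. The typical measured gene was 0.63 higher (log2) in the SH045 section by CPM, so relative to the all-gene median the members' median lay 0.19 lower. That position depended on how low genes were treated: the members' median lay 0.02 below the all-gene median with a pseudocount of 10 CPM (all-gene median 0.46) and 0.04 above it with no filter on low values (0.40). Without mitochondrially encoded genes in the total the shares were 10.1% and 7.91%. All intervals cover counting error only, and not the variation between mice or sections.

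Both subunits had the same direction by CPM. The small subunit genes summed to 3.91% and 2.70% of UMIs (1.45-fold), the large subunit genes to 5.17% and 4.04% (1.28-fold) and the 3 stalk genes to 0.546% and 0.356% (1.54-fold). In each case the block ranges of the sections did not overlap.

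Of the 83 measured members, 28 were at least 1.5-fold higher in the SH045 section by CPM (33.7%), against 52.2% of the 10463 genes measured, and 1 was lower (1.20%), against 11.8% of all genes. The median log2 ratio of the members was 0.44, and 77 of 83 lay above 0, compared with 75.7% of all measured genes. The middle 50% of members ran from 0.27 to 0.72, and the middle 50% of all genes from 0.03 to 1.23. All genes reach down to 10 CPM, where counting error is larger than at the level of most members. No set of genes of like level was compared. Relative to the all-gene median no member was 1.5-fold higher (25.4% of all genes were), and 8 were lower (9.64%, against 25.7% of all genes): Rpl41, Rps19bp1, Rpl36al, Rps27l, Rps2, Rpl36, Rpl11 and Rpl21. TMM factors left 28 members above 0, and median-of-ratios factors 27, with the all-gene median at 0.07 and 0.03. Block ranges did not overlap between sections for 58 members, or 69.9%, against 69.8% of all genes. Of these, 56 were higher in the SH045 section (67.5%, against 56.3% of all genes) and 2 lower, against 13.5%. These counts compare 2 sections and are not tests. The members' ratios lay closer together than those of all genes, which were not matched to them in level. At the 10 CPM filter 27 of 83 lay above the all-gene median, which itself moves with the filter as given.

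**Figure D1:**
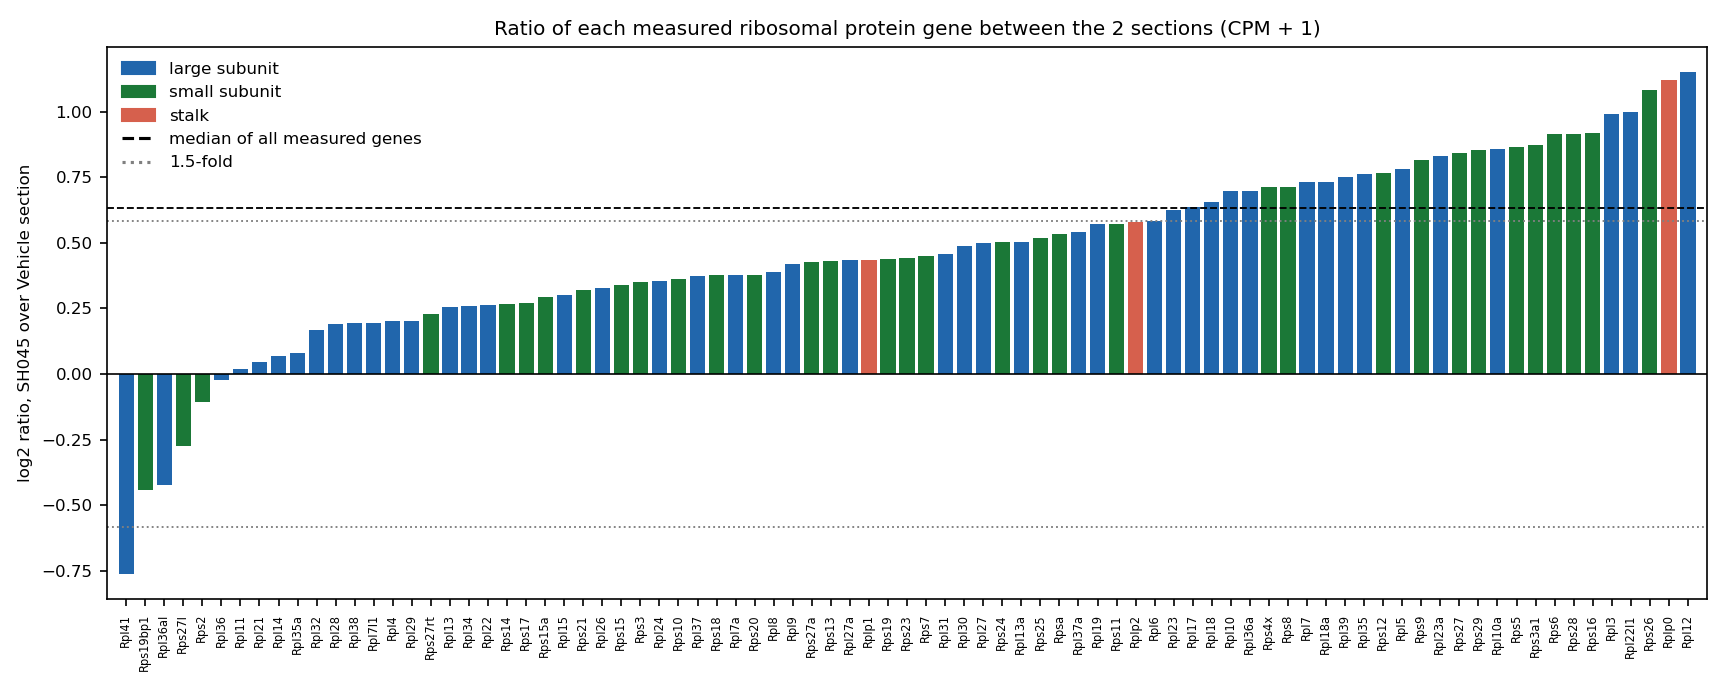
Bars give the log2 ratio of CPM + 1 in the SH045 section over the section labelled Vehicle for each of the 83 measured members (1 section per group, no error bars), coloured by subunit, with the median of all measured genes (0.63, dashed) and 1.5-fold (dotted). Most bars stand between 0 and the dashed line, from Rpl41 at -0.76 to Rpl12 at 1.15.

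The members of highest ratio came from both subunits. Rpl12, a large subunit protein at the base of the stalk, had 992 CPM with SH045 and 446 CPM in the section labelled Vehicle, 2.22-fold (2.12 to 2.33). Rplp0, the protein that anchors the stalk and a common reference gene in quantitative PCR, stood at 1413 and 648 CPM, 2.18-fold (2.10 to 2.27). For both genes every SH045 block lay above every block of the section labelled Vehicle (835 to 1239 against 420 to 464 CPM for Rpl12, and 1256 to 1727 against 485 to 789 CPM for Rplp0). Rps26, whose protein lies at the exit of the messenger RNA channel, stood at 1245 and 587 CPM, 2.12-fold (2.04 to 2.21). Rpl3, near the centre that forms peptide bonds, stood at 819 and 412 CPM, 1.99-fold (1.89 to 2.09). Rps16, Rps28 and Rps6 each had a ratio of 1.89-fold. Rps6 encodes the substrate that gave the S6 kinases of the mTORC1 pathway their name, and stood at 795 and 421 CPM. These ratios lay above 0 with TMM factors, at 0.57 for Rpl12, 0.54 for Rplp0 and 0.33 for Rps6 on the log2 scale. Under that scaling no member reached 1.5-fold, against 26.5% of all genes.

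The other stalk proteins, which form dimers on Rplp0, differed less between sections than Rplp0 did. Rplp1 stood at 2908 and 2148 CPM, 1.35-fold (1.32 to 1.38), and Rplp2 at 1141 and 762 CPM, 1.5-fold (1.44 to 1.55). Their intervals do not reach that of Rplp0, and counting error is all that they cover. With TMM factors Rplp1 fell on the other side of 0, at -0.15, and Rplp2 lay at 0.00. Rpsa, the small subunit protein also known as the laminin receptor, stood at 1536 and 1061 CPM, 1.45-fold (1.40 to 1.49), and lay at -0.05 with TMM factors.

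Rpl41 went the other way and was the single member at least 1.5-fold lower in the SH045 section. It encodes one of the smallest proteins known, a short helix of the large subunit that lies at the interface of the subunits. In the SH045 section Rpl41 had 1822 CPM (blocks 1679 to 1986), compared with 3095 CPM (blocks 2538 to 3605) in the section labelled Vehicle, which is 1.70-fold higher in the latter (1.67 to 1.73). It was lower in the SH045 section under each scaling, with a log2 ratio of -0.76 by CPM, -1.35 after TMM and -1.39 after median-of-ratios scaling. Expressed as a share of the ribosomal protein UMIs alone, which takes out the level of the family, Rpl41 took 1.89% in the SH045 section and 4.36% in the section labelled Vehicle.

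Among members whose block ranges did not overlap, Rpl36al, a copy of Rpl36a, was next. It stood at 425 CPM (blocks 391 to 460) and 571 CPM (blocks 538 to 599), 1.34-fold higher in the section labelled Vehicle (1.28 to 1.40). The remaining genes of lowest ratio among those whose block ranges did not overlap were higher in the SH045 section by CPM and lower with TMM factors. They were Rpl28, Rpl29, Rpl26, Rps15, Rps3 and Rpl24, with log2 ratios from 0.19 to 0.36 by CPM and from -0.39 to -0.23 with TMM factors. Rps3, a small subunit protein at the entry of the messenger RNA channel that is also known for acting in DNA repair, stood at 799 and 626 CPM.

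The members with the most UMIs differed in direction. These counts tag one end of a molecule and were not scaled by length. Rps29 was 1.81-fold higher in the SH045 section (2162 and 1195 CPM), beside Rplp1 and Rpl41 as given. Rpl38, a protein known for selective translation of Hox messages in development, stood at 2035 and 1778 CPM with block ranges that overlapped (1864 to 2156 and 1614 to 1886). Rpl13 stood at 1828 and 1532 CPM, and its block ranges overlapped too.

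Among members with known roles of their own, Rpl5 and Rpl11 carry the 5S ribosomal RNA and bind Mdm2 when ribosome assembly is disturbed. They differed from each other: Rpl5 stood at 1139 and 662 CPM, 1.72-fold (1.66 to 1.79), while Rpl11 stood at 1204 and 1187 CPM, 1.01-fold (0.985 to 1.05), with block ranges that overlapped. Rpl13a, the protein of a translational silencer in interferon-treated myeloid cells, stood at 1757 and 1239 CPM, 1.42-fold. Rps19 and Rps14 are the genes behind Diamond-Blackfan anaemia and a deletion syndrome of the bone marrow in people. Rps19 stood at 1447 and 1068 CPM (1.35-fold) and Rps14 at 983 and 817 CPM (1.20-fold), the latter with overlapping blocks. Rpl10, which is needed for the subunits to join, stood at 728 and 448 CPM, 1.62-fold (1.55 to 1.70). With TMM factors Rpl5 and Rpl10 kept a log2 ratio above 0 (0.20 and 0.11), and Rpl11, Rpl13a, Rps19 and Rps14 lay below it (-0.56, -0.08, -0.15 and -0.32).

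Several members are copies of another member, and the copy often had a different ratio from its partner. How reads that fit several near-identical copies were counted was not stated with the data, so the levels of copies are uncertain. Rps27l, known as a target of p53, had 557 CPM with SH045 and 674 CPM in the section labelled Vehicle, with block ranges that overlapped (436 to 629 and 522 to 818). Its partner Rps27 stood at 1514 and 843 CPM, 1.80-fold (1.74 to 1.86). The further copy Rps27rt stood at 58.5 and 49.7 CPM. As a share of the ribosomal protein UMIs Rps27l took 0.58% in the SH045 section and 0.95% in the section labelled Vehicle.

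Rpl22 binds RNA and is known for a role in lymphocyte development, and its copy Rpl22l1 is known to be held down by it. Rpl22l1 stood at 339 and 169 CPM, 2-fold (1.86 to 2.17), and Rpl22 at 794 and 662 CPM, 1.20-fold (1.15 to 1.25), with block ranges that overlapped for Rpl22 only. Rpl36a, the partner of Rpl36al, stood at 782 and 481 CPM, 1.62-fold (1.55 to 1.70), opposite in direction to its copy by CPM. Rpl3l, the copy of Rpl3 found in heart and skeletal muscle, had 20 UMIs (0.893 CPM) with SH045 and 33 (7.63 CPM) in the section labelled Vehicle, and did not reach the level set for measured genes. Rpl7 stood at 1144 and 688 CPM and its relative Rpl7l1, which acts in ribosome assembly, at 89.1 and 77.6 CPM. Rps19bp1 stood at 43.5 and 59.4 CPM, with block ranges that overlapped. The testis paralogs Rpl10l and Rpl39l had no UMI, which allows (at 3 counts) up to 0.134 CPM with SH045 and 0.693 CPM in the section labelled Vehicle.

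The start of the gene is a feature that the choice of members did not use. RefSeq promoter sequences of the GRCm38.p6 assembly were matched for 66 of the 86 members. A C followed by at least 4 pyrimidines (C or T), beginning within 2 bases of the annotated start, was found in 22 of these 66 (33.3%), against 10.6% of 27025 genes with a promoter sequence and 12.6% of 8332 measured genes. The windows below show 30 bases before and 20 bases from the annotated start, on the strand of the gene. That pyrimidine run is in capitals, from the first C that met the rule. Pyrimidines directly before that C were not counted, so the unbroken stretch starts further upstream in Rpl35 and Rpl12. The 4 members shown first were chosen after their values were seen, as members with the run that were over 1.5-fold higher in the SH045 section by CPM.
Rps6, chr4:86857348-86857397, minus strand: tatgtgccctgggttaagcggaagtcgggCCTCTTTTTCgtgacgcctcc
Rps27, chr3:90213629-90213678, minus strand: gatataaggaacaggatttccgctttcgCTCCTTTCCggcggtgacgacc
Rpl35, chr2:39005112-39005161, minus strand: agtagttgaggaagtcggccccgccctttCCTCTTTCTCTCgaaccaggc
Rpl12, chr2:32961682-32961731, plus strand: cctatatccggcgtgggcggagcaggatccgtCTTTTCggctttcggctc

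Members that stood apart from the family are shown for comparison. Rps27l has 2 annotated starts in the table, and the window of the first has a shorter run. The windows of Rpl22l1, Rpl41 and Rplp0 have none that meets the rule. Rpl22l1 does have a pyrimidine stretch just after the annotated start, but its first C lies outside the 2 bases.
Rps27l, chr9:66946056-66946105, plus strand: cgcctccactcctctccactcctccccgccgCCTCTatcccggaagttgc
Rpl22l1, chr3:28805478-28805527, plus strand: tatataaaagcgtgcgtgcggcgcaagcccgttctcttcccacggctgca
Rpl41, chr10:128549149-128549198, minus strand: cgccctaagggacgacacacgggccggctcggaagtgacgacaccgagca
Rplp0, chr5:115559437-115559486, plus strand: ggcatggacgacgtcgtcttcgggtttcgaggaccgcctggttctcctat

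The windows were picked by their run or their ratio, so they cannot show whether the run goes with the ratio. Rplp0, of high ratio, and Rpl41, of the lowest, both lack it. Rpl28 and Rpl38, of lower ratio and not shown, have runs of 10 and 8 letters. The run was not set against the ratio over all members. A run depends on which start RefSeq annotates, and a window without one says only that these letters are not at that position. Other motifs were counted in the same way. CTCTTTC, on the gene's strand within 25 bases of the start, was in 10.6% of members, 0.810% of all genes and 0.912% of measured genes. CTTTCC, which can overlap it, was in 18.2%, 2.92% and 2.83%. CCGGAAG, the core of ETS factor motifs, was found on either strand of the 300-base promoter in 39.4% of members, 9.93% of all genes and 20.8% of measured genes. AAGATGGC, a YY1 motif, was in 9.09% of members, 3.19% of all genes and 5.56% of measured genes. The GC box GGGCGG was in 62.1% of members, above the 38.2% of all genes and below the 70.5% of measured genes. TATAAA on the gene's strand before the start was in 3.03% of members, 8.94% of all genes and 5.04% of measured genes. Matches describe the sequence and are not binding sites.

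Genes of the wider translation machinery were set beside the family. Of 14 elongation factor and other TOP genes, 11 were at least 1.5-fold higher in the SH045 section by CPM (52.2% of all genes were) and none was lower (11.8% of all genes), with a median log2 ratio of 0.90, above the 0.63 of all genes. Set against the all-gene median, 4 of the 14 passed 1.5-fold, near the 25.4% of all genes. Eef1a1, which brings transfer RNAs to the ribosome, stood at 3662 and 2282 CPM, Tpt1, a TOP message of a translationally controlled tumour protein, at 2876 and 2389 CPM, and Eef2, which moves the ribosome along, at 996 and 807 CPM. Fau, which encodes a small subunit protein fused to a ubiquitin-like protein and which the symbol rule leaves out, stood at 1352 and 1363 CPM, 0.992-fold (0.965 to 1.02), with block ranges that overlapped.

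The lists that follow are to be read against the same 52.2% and 11.8% of all genes. Of 30 initiation factor genes 16 were higher, near that share, and none lower, with a median of 0.66, close to that of all genes. The 3 with the most UMIs, Eif1, Eif4g2 and Eif5a, were not among them, and Eif5a stood at 460 and 464 CPM. Of 29 measured ribosome assembly genes 23 were higher and none lower, with a median of 0.84. Ncl, the nucleolar protein nucleolin, stood at 277 and 142 CPM, while Nop10 and Nhp2, which belong to the small particle that modifies ribosomal RNA, stood at 261 and 296 CPM and at 130 and 107 CPM. Of 10 measured genes of RNA polymerase I and MYC, which drive ribosomal RNA synthesis, 4 were higher, with a median of 0.49. Their log2 ratios ran from 0.18 to 4.54, and the gene of highest ratio is not among those named next. The polymerase subunits Polr1d (185 and 151 CPM) and Polr1c (49.3 and 37.0 CPM) were under 1.5-fold, and the factor Ubtf (111 and 73.7 CPM) lay at that limit, with a log2 ratio of 0.58 on the log2(CPM + 1) scale that was used for calls. Of 15 measured genes of mTORC1 and the S6 kinases 6 were higher and 1 lower, with a median of 0.40. The lower one was Mtor itself, at 57.7 and 105 CPM. Rheb, which activates the complex, stood at 118 and 55.9 CPM, and Eif4ebp2, a repressor it acts on, at 128 and 96.6 CPM.

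The ribosome of the mitochondrion went in the other direction. Of 78 genes of mitochondrial ribosomal proteins, 1 was higher in the SH045 section and 22 were lower, with a median log2 ratio of -0.37. Relative to the all-gene median 61 of the 78 were at least 1.5-fold lower, against 25.7% of all genes. Their sum was 0.619% of UMIs with SH045 and 0.854% in the section labelled Vehicle. Mrpl12 stood at 184 and 548 CPM and Mrps21 at 200.4 and 413 CPM, while Mrpl52 stood at 286 and 230 CPM. Mitochondrially encoded messages were lower beside them, as given above, and the part of either in the other was not tested.

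Across the spots of the SH045 section the ribosomal protein share had a median of 9.36% and ran from 6.42% to 16.4%, with 90% of spots between 7.53% and 12.8%. The SD over spots was 1.68 percentage points, where sampling of UMIs alone would give 0.202. In the section labelled Vehicle the median was 6.85%, the range 3.87% to 12.7% and 90% of spots lay between 5.82% and 8.16%. The SD there was 0.741 points, where sampling alone would give 0.435. Beyond sampling the spread was 17.3% of the mean in the SH045 section and 8.66% in the section labelled Vehicle. The share was spatially ordered in both: a spot and the mean of its neighbours had a Spearman correlation of 0.85 over 789 spots in the SH045 section and 0.49 over 675 in the section labelled Vehicle. Neighbouring spots share tissue and library, and the part of the lower depth of the section labelled Vehicle in its value was not tested.

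**Figure D2:**
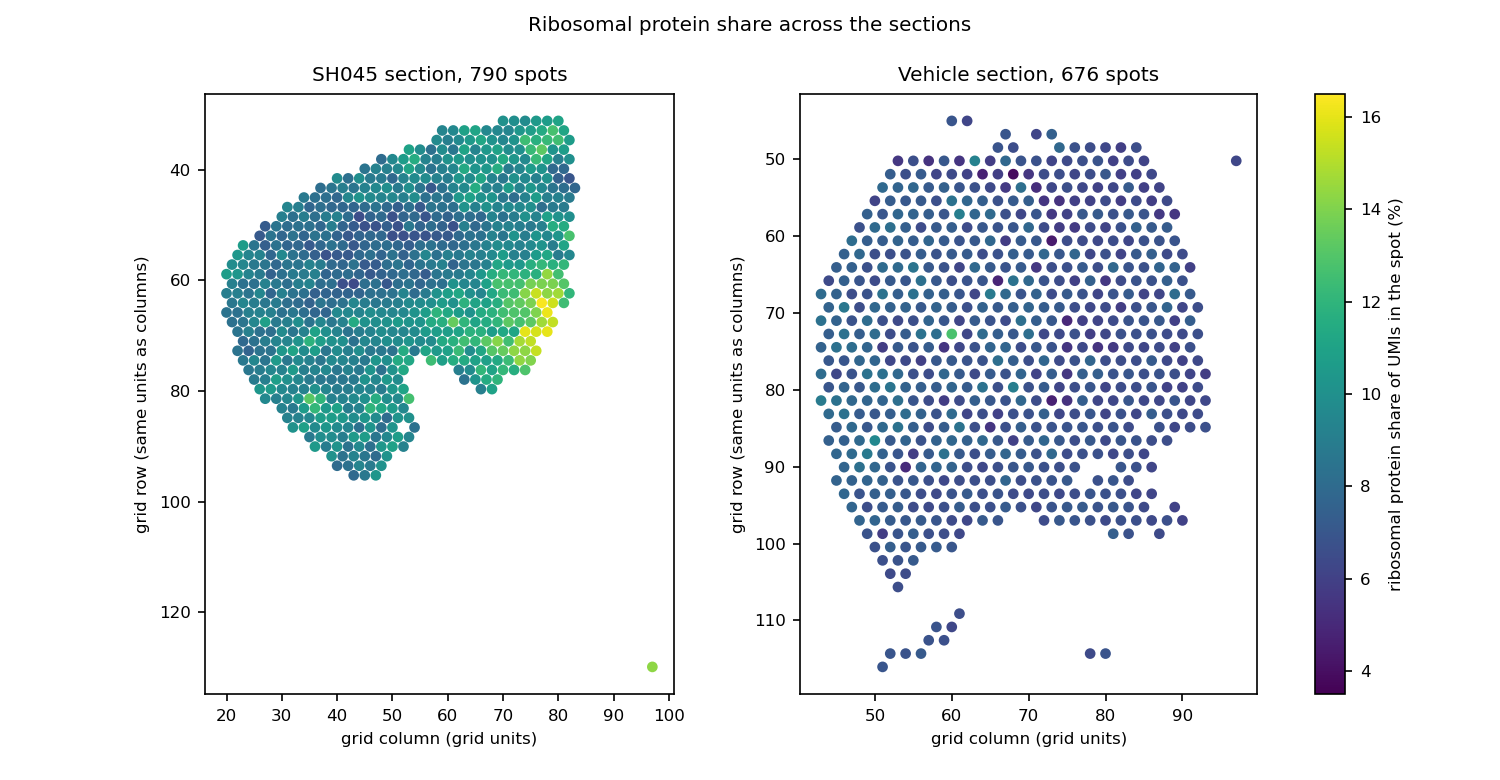
Each point is a spot at its grid position (grid units), coloured by the percent of its UMIs that came from the 86 members, on one scale for the SH045 section (790 spots) and the section labelled Vehicle (676 spots). The highest shares, up to 16.4%, sit together at one side of the SH045 section, and the section labelled Vehicle is lower and more even.

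Spots were grouped into regions within each section with the ribosomal protein and mitochondrially encoded genes left out, and the regions were then numbered by the family's level. In the SH045 section region 1, led by Igfbp2 and Tnn, had 12.8% (78 spots), and region 2, led by Col6a4, Thbs4 and Mmp7, had 10.9% (76 spots). Region 3, led by the keratins Krt14 and Krt5 with Ppbp, had 10.2% (41 spots). These 3 regions also held the fibroblast and matrix markers at 6658, 10940 and 9911 CPM, while the spots outside each had 4730, 4462 and 4662 CPM. This was not limited to them: region 5, with 9.38% from the family, had 8372 CPM against 4722 outside it, and region 9, with 8.98%, had 5470 against 4824. Nor did matrix markers alone mark region 1. Thick ascending limb markers stood there at 7651 CPM against 3677 outside it, and thin limb markers at 1918 against 1163. Macrophage markers were lower there, at 3667 against 6105 CPM. At the other end, region 10, led by Serpina1d, Slc22a7 and Slc22a19, genes of the straight proximal tubule, had 7.88% (42 spots), with the proximal S3 list at 3300 CPM against 701 in the rest. The regions between had 8.98% to 9.71%. Among these region 4 was led by Ccl5, Cxcl10 and Il1f6, region 5 by the podocyte genes Nphs1 and Clic3, region 6 by Iglc2, Iglc1 and Calb1, and region 7 by Krt20, Gc and Serpina1b. Region 8 was led by the proximal tubule genes Slc22a8, Acmsd and Dnase1, and region 9 by Fst, Ighg2c and Aqp2. Mitochondrially encoded genes took 2.82% of UMIs in region 1 and 7.54% in region 10. As a percent of the other UMIs the family still ran from 13.2% in region 1 to 8.52% in region 10.

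In the section labelled Vehicle the regions were closer together. Region 1, led by Ggct, Pllp and AI314278, had 7.55% (162 spots), region 2, led by Nupr1, Ccl21a and Wt1, had 7.43% (140 spots), and region 3, led by Klk1, B830017H08Rik and Cpsf4l, had 6.84% (42 spots). Regions 4 and 5, both led by Gm42418 and Lars2, had 6.68% (121 spots) and 6.65% (211 spots), and mitochondrially encoded genes took 18.6% and 19.7% of their UMIs, against 3.00% to 3.87% in regions 1 to 3. The order turned when mitochondrially encoded genes were left out of the total: regions 4 and 5 then had 8.21% and 8.28%, and regions 1 to 3 had 7.85%, 7.69% and 7.05%.

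**Figure D3:**
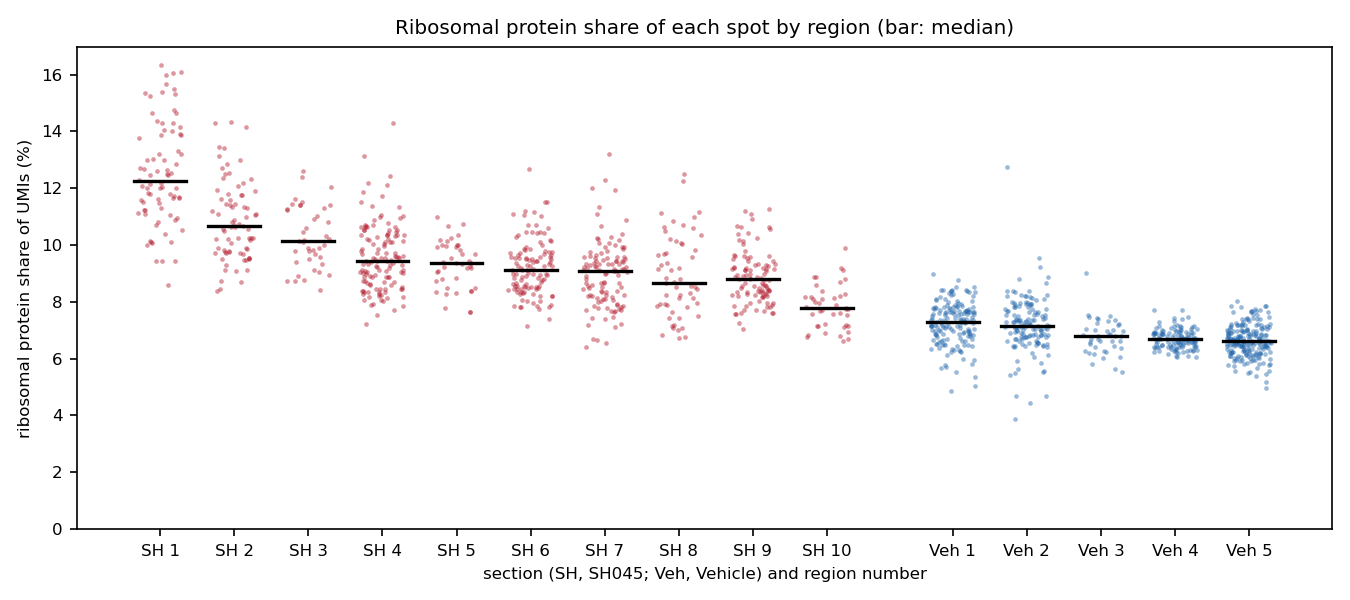
Points give the ribosomal protein share of UMIs (%) of each spot by region, red for the SH045 section and blue for the section labelled Vehicle, with a bar at the median. Region medians fall from 12.2% to 7.77% in the SH045 section, by construction of the numbering, and lie between 6.61% and 7.30% in the section labelled Vehicle.

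Region 1 of the SH045 section was set against region 10, the 2 having been chosen for the family's level, so the shift of the family as a whole is no finding. Of 83 members 62 were at least 1.5-fold higher in region 1 (74.7%, against 41.0% of all 10724 genes measured there), with a median log2 ratio of 0.70 beside 0.44 for all genes. Rpl22l1 had the widest ratio, with 515 CPM in region 1 and 231 CPM in region 10, 2.23-fold (1.96 to 2.53). Rpl12 followed at 1378 and 672 CPM, 2.05-fold (1.90 to 2.21). Both were also among the members of highest ratio between the sections.

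Rps27l was the single member at least 1.5-fold lower in region 1 (1.20% of members, against 12.6% of all genes), at 446 CPM against 681 CPM in region 10. Across the 10 regions of the SH045 section Rps27l ranged from 365 CPM in region 2 to 741 CPM in region 8. Its share of ribosomal protein UMIs went from 0.33% in region 2 to 0.87% in region 10, a ratio of 2.58, the widest of the measured members in this section. It was high in the 3 regions led by proximal tubule genes or Krt20 (0.87% in region 10, 0.82% in region 8 and 0.73% in region 7) and low in regions 1 and 2 (0.35% and 0.33%). The share of its partner Rps27 differed 1.17-fold between the highest and lowest of the same regions. In the section labelled Vehicle Rps27l was highest in region 1, at 940 CPM and 1.25% of ribosomal protein UMIs, where the markers of the first proximal segments summed to 15592 CPM against 9885 in the rest. The other 4 regions had 0.71% to 0.84%. Region 1 against region 5 of that section gave 11 of 83 members at least 1.5-fold higher (13.3%, against 24.4% of all genes) and 2 lower (2.41%, against 11.0%), and Rps27l was 1.87-fold higher in region 1 (1.66 to 2.10).

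**Figure D4:**
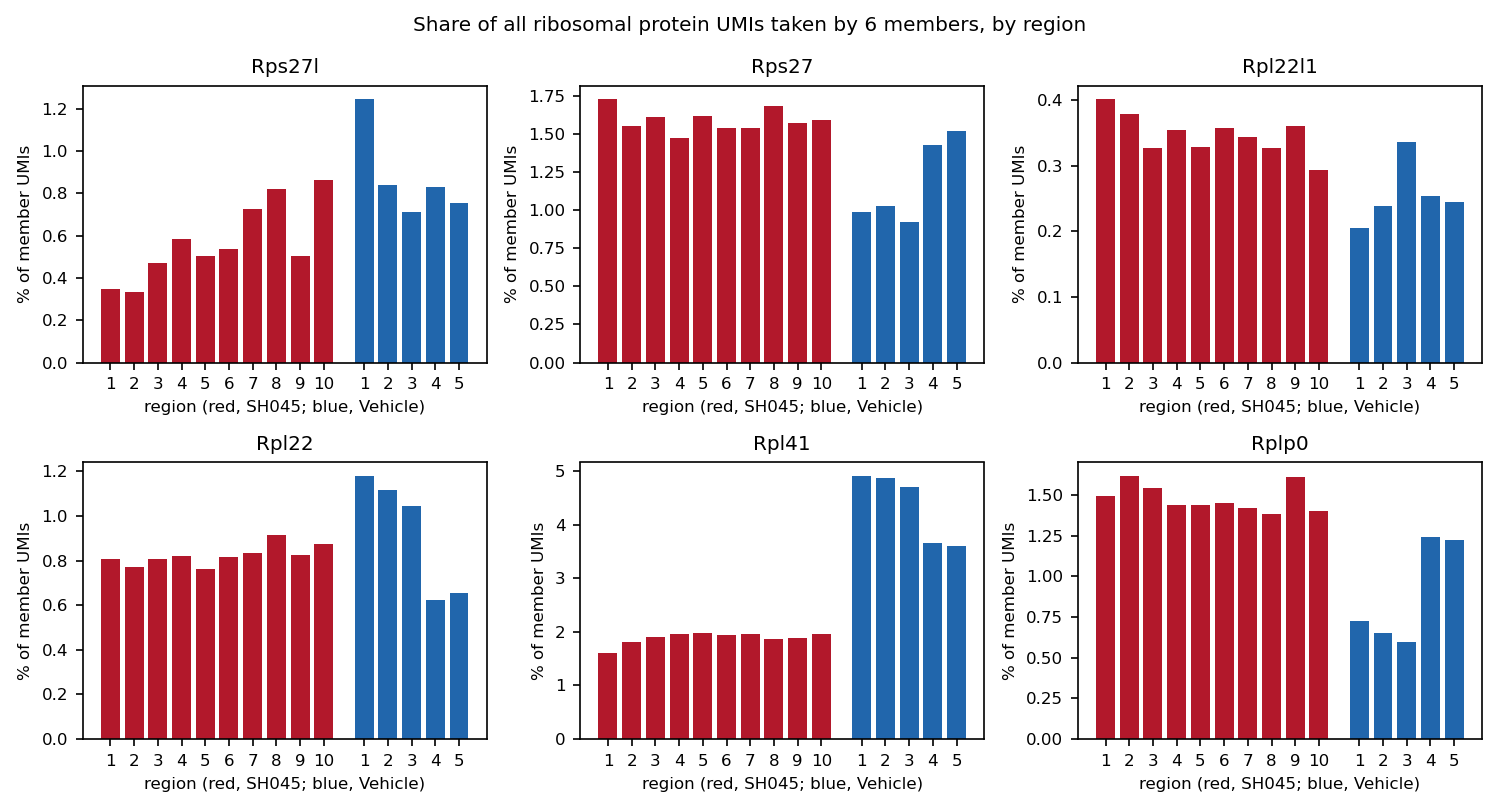
Bars give the percent of all ribosomal protein UMIs taken by 6 members in each region, with the 10 SH045 regions in red and the 5 regions of the section labelled Vehicle in blue (pooled UMIs of a region, no error bars). Rps27l ranges from 0.33% in region 2 to 0.87% in region 10 of the SH045 section. Rpl41, Rpl22 and Rplp0 step between regions 1 to 3 and regions 4 and 5 of the section labelled Vehicle.

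How far each member kept a fixed part of the family was described for members with at least 1000 UMIs in a section, by a chi-square over spots divided by its degrees of freedom, which is about 1 when only sampling varies. In the SH045 section the median over 82 members was 1.24 (1.02 to 2.44), and 13 members reached 1.5. Rps27l was highest at 2.44, followed by Rpsa at 2.04, Rps2 at 1.96, Rpl13a at 1.88 and Rpl35 at 1.81. In the section labelled Vehicle the median over 79 members was 1.15 (0.947 to 1.68), and 2 members reached 1.5, Rpl21 at 1.68 and Rpl41 at 1.55. Rplp0, Rplp2 and Rps14 followed at 1.45, 1.43 and 1.42. The measure grows with depth, and with each spot thinned to 200 ribosomal protein UMIs the medians were 1.03 and 1.08 and the highest values 1.17 and 1.37. Thinning draws the measure towards 1, so these values do not show that members kept a fixed part: Rps27l came to 1.09 in the SH045 section, where its share differed 2.58-fold between regions. At full depth all 82 members of that section lay above 1.

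Spots were thinned to 2500 UMIs to relate the family to other genes across space, which kept 788 and 561 spots. The correlations describe spots of one section that share a library and tissue. In the SH045 section the small and large subunit shares had a Spearman correlation of 0.68, and the family correlated with the TOP and elongation genes at 0.47, with the fibroblast and matrix markers at 0.36 and with smooth muscle markers at 0.21. It ran against the proximal S3 list (-0.36), the first proximal segments (-0.32), mitochondrially encoded genes (-0.33) and the B and plasma cell list (-0.22). It also ran against the number of grid steps from the edge (-0.31). Edge spots are those lacking a grid neighbour in the matrix, so that edge need not be the border of the tissue. Injured tubule markers were at -0.12 and spot depth at -0.03. The single genes outside the family of highest correlation were Col3a1 (0.40), Igfbp7 (0.38), Col6a3 (0.36), Tmsb10 (0.34) and Lcn2 (0.34), of which Col3a1 and Col6a3 encode collagens.

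In the section labelled Vehicle, thinned to the same depth, the subunits correlated at 0.32, and the family correlated with the TOP and elongation genes at 0.06 and with the fibroblast and matrix markers at 0.09. The share ran against mitochondrially encoded genes (-0.43), but with these left out of the total the correlation was 0.41, so the sign rested on the total used. In the SH045 section the value was -0.21 with them left out. With spot depth the share in the section labelled Vehicle correlated at 0.22 and with steps from the edge 0.16. The genes of highest correlation were Fth1 (0.32), Ndufv3 (0.27), Atp5md (0.26), Cox5a (0.24) and Prelid1 (0.24), of which Ndufv3, Atp5md and Cox5a encode subunits of the respiratory chain or ATP synthase. Each member was also set against the sum of the others. Over 82 members the median correlation was 0.22 in the SH045 section, with 81 above 0, and 0.06 in the section labelled Vehicle, with 61 above 0. In sparse spots values of this size are descriptions only.

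The spots of the section labelled Vehicle divided by their mitochondrially encoded UMIs. In 334 spots under 10% these genes took 3.17% of UMIs, Gm42418 stood at 459 CPM and the median spot was 5 grid steps from the edge. In the 342 spots at 10% or more they took 18.9%, Gm42418 stood at 6576 CPM and the median spot was 1 step from the edge. That edge is the one of the matrix, which holds 570 of the 1210 spots marked as tissue. The family took 7.43% of UMIs in the first group and 6.69% in the second, and 7.67% and 8.25% of UMIs that were not mitochondrially encoded. Only 20 SH045 spots reached 10%.

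The make-up of the family differed between these groups of spots. By CPM 12 of 83 members (14.5%) differed by at least 1.5-fold between them, against 28.0% of all genes, 3 being higher in the spots rich in mitochondrially encoded UMIs (Rplp0, Rpl27 and Rpl7a) and 9 lower. As a share of the ribosomal protein UMIs the balance was the other way: of 79 members with at least 1000 UMIs in the section, 8 had a share at least 1.5-fold higher in those spots and 4 a lower one. Rplp0 took 0.683% of ribosomal protein UMIs in the first group and 1.22% in the second, 1.78-fold (1.65 to 1.92), beside 1.47% in the SH045 section. Rpl27 went from 0.537% to 0.995%, 1.85-fold (1.70 to 2.02), beside 0.767%. Rpl22 went the other way, from 1.15% to 0.649%, 1.77-fold lower (1.64 to 1.92), beside 0.825%, and Rpl21 from 2.15% to 1.26%, beside 1.34%. Rpl41 went from 4.90% to 3.66%, and both groups lay above the 1.89% of the SH045 section. Of the same 79 members, 49 had a share closer to that of the SH045 section in the spots rich in mitochondrially encoded UMIs. Among the 8 and 4 members whose share differed by at least 1.5-fold, 7 did so. No like count was made over all genes. With only the spots under 10% in both sections, 31 of 83 members were at least 1.5-fold higher in the SH045 section, against 48.2% of all genes, and 2 were lower, against 13.9%. The difference of single members such as Rplp0 between the sections moved with the spots of the section labelled Vehicle that were counted, and the part of tissue quality in it was not tested.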

How the data were processed

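The authors deposited, for each of the 2 sections, a matrix of UMI counts per gene and spot, not normalized, with spot positions. Space Ranger 2.0.1 produced them, per the file headers, with the mm10 build, per the submitters' processing notes. The annotation release and the handling of reads that fit several genes were not stated. In the section labelled Vehicle the position table marks 1210 spots as tissue, of which 570 are among the 676 of the matrix. All spots of the matrices were used. The sections share 335 spot barcodes, which are array positions and not cells.

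The members and gene lists were chosen with earlier results of these data known. Groups follow the treatment in the labels. UMIs were summed per section, scaled to CPM and compared as the difference of log2(CPM + 1), which understates differences of low genes. A gene was measured at 10 CPM in either section and called at 1.5-fold. CPM intervals are exact Poisson and fold intervals exact conditional binomial, both at 95% and for counting error only. Each section was split into 4 blocks of spots by position. TMM factors (edgeR 4.0.16) and median-of-ratios factors (DESeq2 1.42.0) were set with no filter on low counts. They were used as scalings only, and no model was fitted. Regions came from scanpy 1.11.5 (2000 variable genes, 20 components, 15 neighbours) and Leiden clustering (leidenalg 0.10.2, resolution 0.6). No doublet caller was run, since a spot is not a cell. The scripts were tested on simulated counts.

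Named genes are the copies with their partners and Rps19bp1, the 8 members of highest and 8 of lowest ratio with at least 50 CPM and block ranges that did not overlap, the 5 with the most UMIs, the stalk genes and Rpsa, the 5 least even over spots in each section, 7 members with known roles, the 3 with the most UMIs of each pathway list, the 5 genes best correlated with the family, and the 3 leading genes of a region. Some genes that this rule names are not reported here. Members named outside this rule (Rpl36, Rpl27, Rpl7a), Havcr1, Lcn2, Gm42418 and Krt20 were named after their values were seen. Gene starts and promoters are RefSeq's for GRCm38.p6, with positions matched for 86 members.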

Additional observations from a re-analysis of the deposited data

How the results depend on the processing

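No paired analysis was possible because each group has 1 section. The direction of the family rested on the scaling. The log2 ratio of the summed level (0.44) became -0.14 after TMM and -0.19 after median-of-ratios scaling, 0.35 without mitochondrially encoded genes in the total, 0.42 with only the flagged spots of the section labelled Vehicle and 0.38 with only spots under 10% mitochondrially encoded UMIs. The median log2 ratio of the members (0.44) became -0.14, -0.19, 0.35, 0.45 and 0.42 under the same settings, and 0.46 with the SH045 section thinned to the other's total. Of the 28 members at least 1.5-fold higher, 0 passed with TMM or median-of-ratios factors, against 26.5% and 25.2% of all genes. At 2-fold 3 passed, against 33.4% of all genes. The count of lower members (1) became 6 after TMM and 7 after median-of-ratios scaling, against 25.2% and 26.5% of all genes. It was 2 with the flagged spots and with spots under 10%, against 12.5% and 13.9% of all genes. With no filter on low values it was 2, against 8.79%, and at 2-fold it was 0, against 6.98%. The all-gene median was 0.63 by CPM. With TMM and median-of-ratios factors it was 0.03 and -0.02 where the 10 CPM filter followed the rescaling. Over the genes measured by CPM it was 0.07 and 0.03 with these factors. By CPM it was 0.40 with no filter and 0.46 with a pseudocount of 10 CPM. The members' median then lay 0.04 above and 0.02 below it, against 0.19 below as reported. The median share per spot became 9.79% (SH045) and 7.90% (Vehicle) without mitochondrially encoded genes, 9.38% (SH045) with pseudogene rows added and 6.89% (Vehicle) with only spots of at least 2500 UMIs. At 1000 UMIs per spot the SH045 correlations were 0.26 for matrix markers, 0.40 for TOP genes and -0.24 for the S3 list, and that for mitochondrially encoded genes in the section labelled Vehicle was -0.27. Of all alternative values 21 stayed within their error or within 1.5 times the count, 24 moved and 4 turned in direction. The lower depth of the section labelled Vehicle limits its values per spot.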
